A study of Mus musculus with 16 samples.

Results

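The genes described are the matrix metalloproteases (Mmp), the Adamts proteases and the tissue inhibitors of metalloproteases (Timp) in cultured mouse preadipocytes. They were taken by symbol, as each Mmp followed by a number, with or without an a or b, each Adamts followed by a number and each Timp followed by a number, so that the Adamts-like genes were not included. The rule found 46 genes (23 Mmp, 19 Adamts and 4 Timp) among 29060 gene symbols. Primary preadipocytes had been prepared from the stromal-vascular fraction of inguinal white or interscapular brown fat of C57BL/6N UCP1 reporter mice, a strain that all groups share. Cells of each depot were either controls or treated with the fibroblast growth factor Fgf8b, and RNA was sequenced from 4 libraries of each depot and treatment. The sources used here state neither the dose and duration of Fgf8b, nor what the controls received, nor the age and sex of the mice, and the sample labels say adipocytes where the design text says preadipocytes. The design text speaks of 3 cultures of each kind and which of the 4 libraries of a group share a culture is not given, so p-values measure the spread between libraries, which may be technical.

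Matrix metalloproteases are zinc endopeptidases that are made as inactive proenzymes and cut collagens, proteoglycans and other proteins of the extracellular matrix. Adamts proteases are secreted relatives with thrombospondin motifs, some of which trim procollagen and some of which cut large proteoglycans, and Timps are small secreted proteins that bind the active site of these enzymes and block it. In fat, the pericellular collagen network is remodelled as fat cells form and enlarge, and the membrane-anchored protease Mmp14 is known to be needed for the growth of white fat in mice.

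Levels are given in RPKM (read number scaled to transcript length and to library depth, so that levels of different genes can be compared). They are those of the RefSeq transcript with the highest mean per gene, or of the highest entry where a gene had no RefSeq transcript. Tests used the sum over a gene's transcripts as log2(RPKM + 0.5), fitted with limma over all genes and libraries, and a change was called at a Benjamini-Hochberg adjusted p under 0.05. For genes of low level the pseudocount makes a log2 change smaller than the ratio of the levels. Of the 46 genes, 37 reached 0.5 RPKM, summed over a gene's transcripts, in at least 4 libraries and were tested (19 Mmp, 15 Adamts and 3 Timp). The 9 that were not tested are Mmp1a, Mmp7, Mmp20, Mmp21, Adamts13, Adamts17, Adamts18, Adamts19 and Timp4. Mmp20, the enamel protease, and Adamts13, the protease that cuts von Willebrand factor, were listed at 0 in each of the 16 libraries.

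With Fgf8b the secreted proteases Mmp3, Mmp10 and Mmp13 and the inhibitor Timp1 rose in both depots, while Mmp2, Mmp14, Adamts1, Adamts2, Adamts5, Timp2 and Timp3 fell in both. In white preadipocytes 12 of the 37 tested genes were called higher and 21 lower. Over all 15222 genes tested, 65.7% were called in white preadipocytes, 36.3% higher and 29.5% lower. In brown preadipocytes the counts were also 12 higher and 21 lower, against 71.4% of all genes called, 36.7% higher and 34.7% lower. Calls of at least 2-fold numbered 23 of 37 in white (11.7% of all genes), 8 higher (4.39% of all genes) and 15 lower (7.3% of all genes). In brown preadipocytes they numbered 22 of 37 (14.3% of all genes), 9 higher (5.01%) and 13 lower (9.29%). The median log2 change of the tested genes was −0.72 in white and −0.74 in brown preadipocytes, against 0.04 and 0.01 over all genes. The split of all genes into higher and lower depends on the scaling between libraries, and with upper-quartile factors 4670 were higher and 5167 lower in white (5521 and 4486 as deposited) and 4599 and 6176 in brown (5582 and 5282 as deposited). These are bulk libraries, in which fewer cells of a type and less RNA per cell cannot be told apart.

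Some of these genes could only be tested because they were high under a single treatment. On the level summed over transcripts, Mmp1b, Mmp8, Mmp10, Mmp12 and Adamts8 reached the threshold of 0.5 RPKM only in Fgf8b libraries. Adamts3 and Adamts16 reached it only in control libraries. The representative transcripts of Mmp1b, Mmp8 and Adamts3 stayed below 0.5 RPKM, at most 0.443, 0.250 and 0.477 RPKM in any library. Among the 30 genes that reached the threshold under both treatments, 8 were called higher and 19 lower in white, and 7 higher and 19 lower in brown preadipocytes. Calls of at least 2-fold in either direction numbered 18 of these 30 in white and 15 in brown preadipocytes. Over all genes tested, without that restriction, the shares were 11.7% and 14.3%. The median over these 30 genes was −0.88 in white and −0.85 in brown preadipocytes.

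Calls of the 2 depots were set side by side. The call was higher in both depots for 11 genes (Mmp1b, Mmp3, Mmp10, Mmp12, Mmp13, Mmp19, Adamts6, Adamts7, Adamts8, Adamts14 and Timp1). It was lower in both for 20 (Mmp2, Mmp9, Mmp11, Mmp14, Mmp15, Mmp16, Mmp17, Mmp23, Mmp28, Adamts1, Adamts2, Adamts3, Adamts5, Adamts9, Adamts10, Adamts12, Adamts15, Adamts16, Timp2 and Timp3). Calls in opposite directions occurred for 0 genes. Of all 15222 genes tested, 28.5% were called higher in both depots, 24.2% lower in both and 2.69% in opposite directions. A call in a single depot occurred for Adamts4 (higher in white), Mmp8 (higher in brown), Mmp27 (lower in white) and Mmp25 (lower in brown). The brown response minus the white one passed the interaction test for Adamts4 and Mmp27, but not for Mmp8 (0.91 ± 0.38, limma adjusted p = 0.0730) or Mmp25 (−0.81 ± 0.36, adjusted p = 0.0884). Mmp24, a membrane-type protease, and Adamts20 passed in neither depot.

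**Figure D1:**
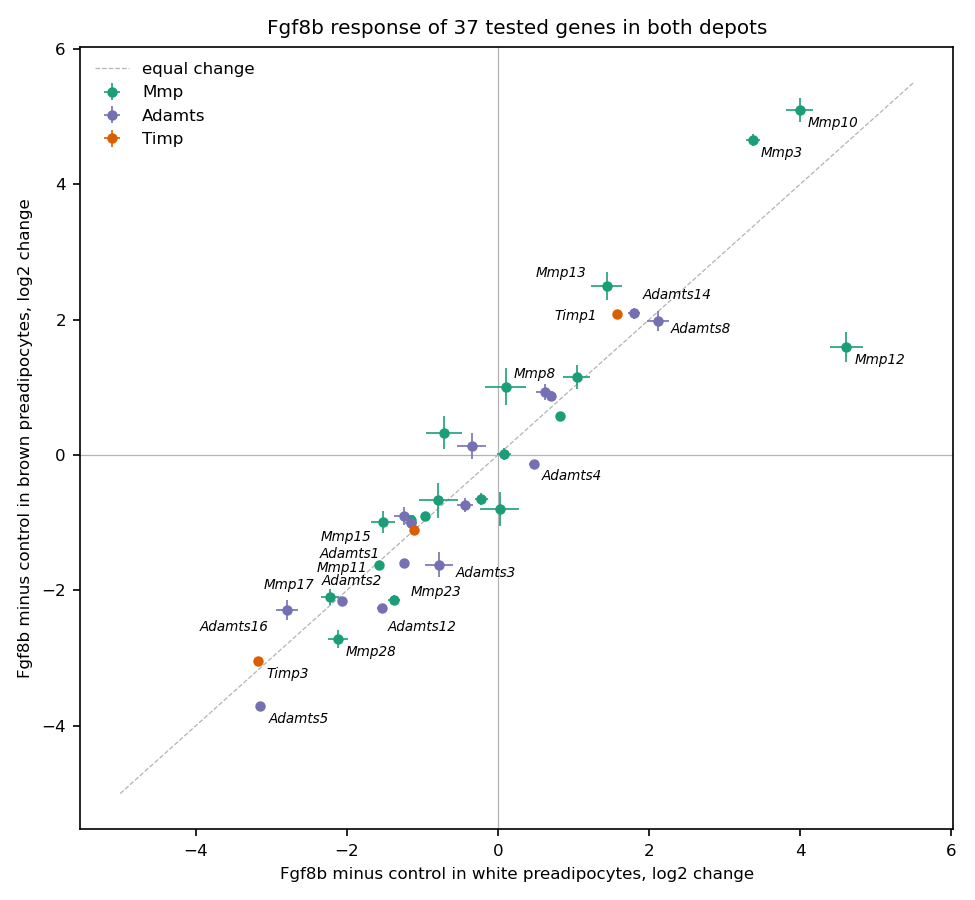
Fgf8b response in brown preadipocytes (vertical axis, log2 change) against that in white preadipocytes (horizontal axis, log2 change) for the 37 tested genes, coloured by family. Points are limma estimates and bars their SE. Mmp10 and Mmp3 lie at the upper right, Timp3 and Adamts5 at the lower left, and Mmp12 lies far to the right of the dashed line of equal change.

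The genes that rose include most of the tested genes in a run of Mmp genes on chromosome 9. In the RefSeq gene order of GRCm38.p6, 10 Mmp genes follow one another there without another coding gene between them, in the order Mmp13, Mmp12, Mmp1b, Mmp3, Mmp1a, Mmp10, Mmp8, Mmp27, Mmp20 and Mmp7. They encode the secreted collagenases, the stromelysins Mmp3 and Mmp10, the macrophage elastase Mmp12 and matrilysin Mmp7. Of the 7 tested genes in the run, 5 were called higher and 1 lower in white preadipocytes, and 6 higher and 0 lower in brown. The 30 tested genes elsewhere in the genome gave 7 higher and 20 lower in white and 6 higher and 21 lower in brown preadipocytes. Both sets stand against 36.3% of all genes called higher and 29.5% lower in white, and 36.7% higher and 34.7% lower in brown. Of the 7, 4 (Mmp1b, Mmp8, Mmp10 and Mmp12) are among those tested only because of their level with Fgf8b.

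The promoters of these genes were read from RefSeq (GRCm38.p6), from 250 bases before to 50 bases after the start, on the strand of the gene. A window was present for 32 of the 46 genes. None was present for Mmp2, Mmp9, Mmp16, Mmp17, Mmp19, Adamts4, Adamts5, Adamts6, Adamts7, Adamts8, Adamts10, Adamts15, Adamts16 and Adamts19. The letters TGAGTCA, the best known binding sequence of the AP-1 transcription factors, which act downstream of growth factor signalling, were searched on both strands. They occur in 5.2% of 32851 promoters of that length. They were found in 7 of the 10 genes of the run (Mmp13, Mmp12, Mmp1b, Mmp3, Mmp1a, Mmp10 and Mmp7) and in 0 of the 22 others with a promoter. The window of Mmp8, which was called higher in brown preadipocytes, did not hold them. Mmp1a and Mmp7 had a match but were too low to be tested. Of the genes outside the run that were called higher in either depot, only Adamts14 and Timp1 had a window. The others (Mmp19, Adamts4, Adamts6, Adamts7 and Adamts8) could not be searched. AGGAAG, a core of ETS factor sites, was found in 15 of the 32 genes (35.4% of all promoters), and TATAAA, the TATA box, in 11 (13.6% of all promoters). In the 35 windows of the 32 genes, 0 matches overlapped a match to another of these motifs. A match is a description of the letters and not a site of binding.

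The windows of the genes of the run that rose in both depots are shown with those of Timp1, which also rose, and Timp3, which fell, with matches to the 3 motifs in capitals. In each of the first 5 a match to TGAGTCA, or its reverse complement TGACTCA in Mmp13, stands upstream of a TATAAA. Its first base is at −46 in Mmp3, −63 in Mmp10, −35 in Mmp13, −44 in Mmp12 and −93 in Mmp1b, counted from the annotated start. Mmp12 has 2 windows, of which the one with the match is shown.
Mmp3, chr9:7445572-7445871, plus strand: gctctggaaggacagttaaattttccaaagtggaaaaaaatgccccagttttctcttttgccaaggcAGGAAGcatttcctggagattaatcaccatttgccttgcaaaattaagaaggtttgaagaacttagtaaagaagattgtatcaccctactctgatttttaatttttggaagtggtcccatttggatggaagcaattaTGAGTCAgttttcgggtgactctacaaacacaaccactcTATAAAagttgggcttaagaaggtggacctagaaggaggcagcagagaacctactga
Mmp10, chr9:7502092-7502391, plus strand: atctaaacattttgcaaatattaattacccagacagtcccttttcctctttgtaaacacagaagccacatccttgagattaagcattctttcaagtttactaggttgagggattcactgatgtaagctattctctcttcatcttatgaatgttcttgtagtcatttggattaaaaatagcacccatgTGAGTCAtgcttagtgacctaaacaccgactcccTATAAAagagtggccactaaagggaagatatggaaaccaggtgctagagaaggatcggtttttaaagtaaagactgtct
Mmp13, chr9:7272264-7272563, plus strand: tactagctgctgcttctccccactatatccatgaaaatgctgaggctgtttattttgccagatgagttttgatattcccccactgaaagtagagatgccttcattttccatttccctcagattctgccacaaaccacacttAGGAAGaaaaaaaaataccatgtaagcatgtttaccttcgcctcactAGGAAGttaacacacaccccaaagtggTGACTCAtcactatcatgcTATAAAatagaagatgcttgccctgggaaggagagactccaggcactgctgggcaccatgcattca
Mmp12, chr9:7347124-7347423, plus strand: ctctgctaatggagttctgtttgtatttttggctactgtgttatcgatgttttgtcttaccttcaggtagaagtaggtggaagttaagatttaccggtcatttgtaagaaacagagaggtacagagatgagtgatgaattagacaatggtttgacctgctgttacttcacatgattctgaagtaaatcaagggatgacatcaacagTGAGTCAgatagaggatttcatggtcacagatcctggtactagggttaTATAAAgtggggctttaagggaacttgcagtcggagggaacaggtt
Mmp1b, chr9:7387977-7388276, minus strand: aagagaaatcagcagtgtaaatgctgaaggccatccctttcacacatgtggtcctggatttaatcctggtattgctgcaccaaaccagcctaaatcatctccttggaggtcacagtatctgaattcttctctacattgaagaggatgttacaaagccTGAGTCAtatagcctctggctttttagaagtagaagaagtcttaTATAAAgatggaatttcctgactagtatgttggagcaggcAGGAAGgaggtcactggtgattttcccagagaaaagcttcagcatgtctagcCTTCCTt
Timp1, chrX:20869916-20870215, plus strand: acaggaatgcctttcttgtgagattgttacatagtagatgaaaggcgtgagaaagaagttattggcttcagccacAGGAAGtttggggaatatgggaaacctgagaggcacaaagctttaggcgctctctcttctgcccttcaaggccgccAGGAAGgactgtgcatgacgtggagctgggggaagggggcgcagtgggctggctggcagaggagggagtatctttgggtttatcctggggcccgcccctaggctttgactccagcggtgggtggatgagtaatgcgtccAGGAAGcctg
Timp3, chr10:86300162-86300461, plus strand: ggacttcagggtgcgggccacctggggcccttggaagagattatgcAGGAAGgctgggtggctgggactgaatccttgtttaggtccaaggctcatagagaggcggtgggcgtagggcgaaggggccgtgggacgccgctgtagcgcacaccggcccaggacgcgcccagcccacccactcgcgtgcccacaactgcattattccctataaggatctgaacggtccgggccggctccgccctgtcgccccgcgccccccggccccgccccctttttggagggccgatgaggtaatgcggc
The Timp1 window holds 3 AGGAAG and the Timp3 window 1, and neither holds the exact letters TGAGTCA or TATAAA in these 300 bases. Letters that differ by a single base were not counted, such as TGAGTAA near the end of the Timp1 window.

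Mmp3, stromelysin-1, cuts proteoglycans, fibronectin and other matrix proteins and activates other Mmp proenzymes. Its level in the white libraries was 20.6, 17.8, 17.8 and 18.6 RPKM in controls and 172, 208, 198 and 203 RPKM with Fgf8b. In the brown libraries it was 1.70, 2.64, 2.05 and 2.42 RPKM in controls and 60.4, 57.2, 61.8 and 62.3 RPKM with Fgf8b. The 4 groups did not overlap, with the brown controls lowest and the white Fgf8b libraries highest. The fitted rise was 10.3-fold in white (log2 change 3.37 ± 0.094 SE, limma adjusted p = 3.65e-16) and 25.0-fold in brown preadipocytes (4.65 ± 0.094, adjusted p = 2.63e-18). The brown response exceeded the white by 1.28 ± 0.13 on the log2 scale (adjusted p = 7.14e-07), and yet Mmp3 with Fgf8b remained lower in brown than in white cells by a log2 difference of −1.69.

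Mmp10, stromelysin-2, is a close relative of Mmp3 with much the same substrates. White libraries gave 0.112, 0.206, 0 and 0.193 RPKM in controls and 3.98, 6.18, 6.29 and 6.43 RPKM with Fgf8b. The brown controls were listed at 0 in each library and the brown Fgf8b libraries at 8.06, 7.74, 9.43 and 8.18 RPKM. Treated and control libraries did not overlap in either depot. Recovered reads rose from 16 to 716 over the white libraries, a depth-adjusted ratio of 44.3 (exact 95% interval 27.1 to 78.0, counting error only). In brown libraries they went from 0 to 863, which is 293-fold over a floor of 3 reads for the 4 control libraries. The lower end of the exact 95% interval of the brown ratio was 238. The fitted log2 changes, 3.99 ± 0.18 in white (adjusted p = 3.59e-13) and 5.09 ± 0.18 in brown (7.16e-15), depend on the pseudocount and the brown one is no bound. With a pseudocount of 0.1 the difference of the responses was 2.14 in place of 1.10. Mmp3 and Mmp10 share 202 words of 31 bases, and 14.6% of the words of Mmp3 and 11.9% of those of Mmp10 occur in any other gene. Reads from such words could be counted for either gene, so the split between these 2 genes is uncertain.

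The secreted collagenases of the run (Mmp1a, Mmp1b, Mmp8 and Mmp13), which cut fibrillar collagen, were low in all groups. Mmp13, collagenase-3, rose from 0.328 ± 0.075 to 1.10 ± 0.22 RPKM in white (SD, n = 4) and from 0.128 ± 0.061 to 1.34 ± 0.34 RPKM in brown preadipocytes. Its log2 change was 1.44 ± 0.21 in white (adjusted p = 5.64e-06) and 2.50 ± 0.21 in brown (adjusted p = 2.66e-09). On recovered reads the ratio was 3.34 in white (216 against 64 reads) and 10.5 in brown (216 against 21). With the representative RefSeq transcript alone the log2 changes of Mmp13 were 0.94 and 1.53 and their difference 0.59. Mmp8, the neutrophil collagenase, rose from 5 to 25 reads in brown preadipocytes (ratio 5.10, interval 1.92 to 17). In white preadipocytes it had 8 reads in controls and 12 with Fgf8b (ratio 1.49, interval 0.558 to 4.19). Mmp1b, a rodent interstitial collagenase, was called higher in both depots at levels of at most 0.443 RPKM in any library, and 29.0% of its words are shared with other genes, mainly Mmp1a. Mmp1a itself had 0 reads in both sets of controls, 7 in the white and 1 in the brown Fgf8b libraries. At such low levels the fitted sizes follow the pseudocount. With 0.1 and 1 in its place, the brown log2 change of Mmp8 was 1.95 and 0.66 and that of Mmp1b 2.67 and 0.70.

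Mmp12, macrophage elastase, rose in both depots, with more reads in white Fgf8b than in brown Fgf8b libraries. It had 1 read over the white controls and 207 over the white Fgf8b libraries (37 to 64 each), a ratio of 205 with a counting interval of 36.4 to 8135. In brown libraries it had 0 reads in controls and 14 with Fgf8b (2 to 5 each), 4.76-fold over the floor of 3 reads. The lower end of the counting interval of the brown ratio was 3.38. All 4 white Fgf8b libraries, at 0.589, 0.930, 0.799 and 0.824 RPKM, lay above the brown Fgf8b libraries, at 0.0866, 0.0736, 0.0570 and 0.0378 RPKM. The fitted log2 change was 4.61 ± 0.22 in white (adjusted p = 1.06e-12) and 1.59 ± 0.22 in brown (3.04e-06), a difference of −3.02 ± 0.31 (adjusted p = 6.50e-07). These values depend on the transcripts summed. Over all its transcripts, as fitted, Mmp12 summed to 10.2, 16.2, 14.5 and 14.9 RPKM in the white Fgf8b libraries. In the brown Fgf8b libraries the sums were 1.82, 1.17, 0.793 and 0.524 RPKM. With the representative RefSeq transcript alone the log2 change was 1.34 in white and 0.17 in brown cells, where the call was lost (adjusted p = 0.0757), and the difference was −1.17 (adjusted p = 6.47e-07). Macrophages are the cells best known for Mmp12. Of the 9 macrophage markers in the table, 4 (Cd68, Lyz2, Csf1r and Cd14) reached 0.5 RPKM on average, while Ptprc was at most 0.0132 and Itgam at most 0.0146 RPKM in any library. Cd14 had mean levels of 3.01 and 5.12 RPKM in white control and Fgf8b libraries and 3.58 and 7.87 RPKM in brown ones. Lyz2 was at 1.22 and 0.0919 RPKM in white and 2.96 and 0.171 RPKM in brown libraries, and Csf1r was also lower with Fgf8b. The summed level of the list was 5.28 to 6.06 RPKM in white controls and 6.87 to 7.65 RPKM with Fgf8b, and 6.45 to 9.03 and 9.56 to 10.3 RPKM in brown libraries. Their part in the result was not tested.

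**Figure D2:**
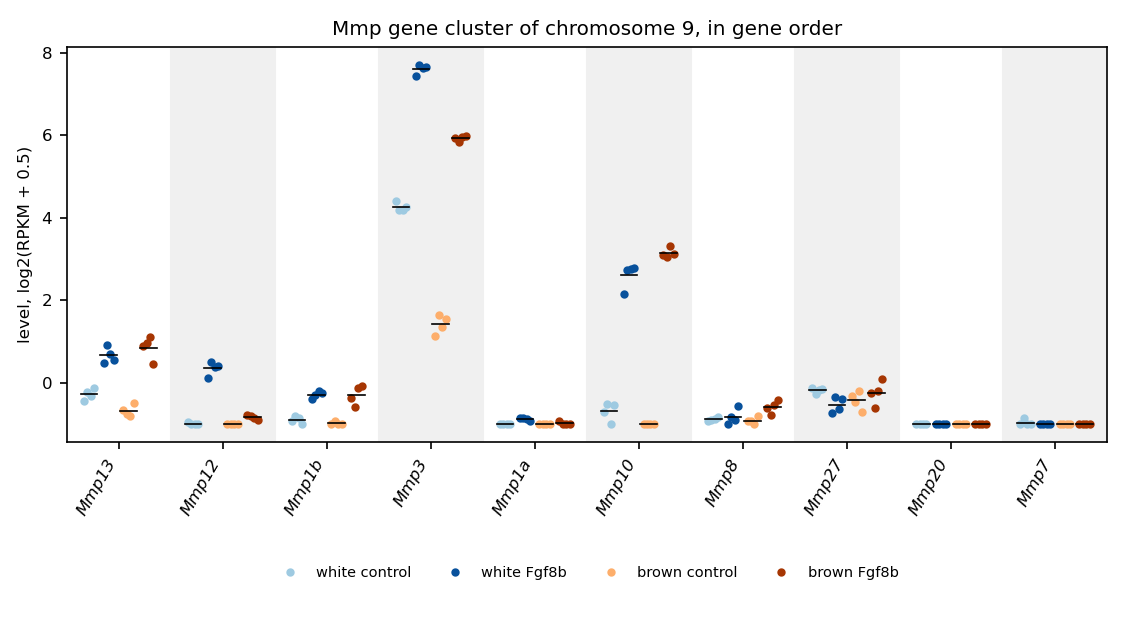
Level of the 10 neighbouring Mmp genes of chromosome 9 in gene order (vertical axis, log2(RPKM + 0.5)), each point a library and each line the mean of a group of 4. Mmp3 is the highest gene of the run in every group, Mmp12 is seen mainly in the white Fgf8b libraries, and Mmp20 is at 0 throughout.

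Mmp27 stood apart in the run. It is a little-studied member of the family and was called lower in white preadipocytes, from 0.388 ± 0.037 to 0.200 ± 0.087 RPKM (log2 change −0.72 ± 0.24, adjusted p = 0.0134). Leaving out white Fgf8b 2 ended that call (−0.58, adjusted p = 0.0522). In brown preadipocytes its level was 0.257 ± 0.11 and 0.362 ± 0.17 RPKM, with overlapping libraries and adjusted p = 0.229.

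The summed level of the 10 genes was 19.7 ± 1.3 RPKM in white controls and 204 ± 17.6 RPKM with Fgf8b, and 2.63 ± 0.37 and 71.1 ± 3.1 RPKM in brown cells (SD, n = 4). Without Mmp3 the sums were 0.948 and 8.24 RPKM in white and 0.426 and 10.6 RPKM in brown preadipocytes.

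Outside the run, the proteases with the highest levels in controls fell. Mmp14, also called MT1-MMP, is a membrane-anchored collagenase that activates the Mmp2 proenzyme, and it had the highest level of the Mmp and Adamts genes in both sets of controls. White libraries gave 425, 426, 423 and 426 RPKM in controls and 185, 195, 189 and 199 RPKM with Fgf8b. Brown libraries gave 401, 421, 404 and 391 RPKM in controls and 210.0, 206, 212 and 201 RPKM with Fgf8b. Control libraries of both depots lay above all Fgf8b libraries. The log2 change was −1.15 ± 0.030 in white (adjusted p = 1.46e-16) and −0.96 ± 0.030 in brown (1.42e-15), and the fall was smaller in brown by 0.18 ± 0.042 (adjusted p = 0.00258).

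Mmp2, gelatinase A, cuts denatured collagen and basement membrane collagen. White libraries gave 283, 265, 269 and 266 RPKM in controls and 132, 140.4, 139 and 137 RPKM with Fgf8b. Brown libraries gave 123, 129, 123 and 129 RPKM in controls and 70.6, 64.4, 72.1 and 65.4 RPKM with Fgf8b. White controls were highest, brown Fgf8b libraries lowest, and within each depot the treated and control libraries did not overlap. The falls, −0.97 ± 0.041 and −0.90 ± 0.041 on the log2 scale, differed by 0.07 ± 0.058 (adjusted p = 0.369, interaction). Mmp9, gelatinase B, was near the detection limit, with 34 reads in white controls and 15 with Fgf8b, and 14 and 3 in brown libraries. Its calls in both depots depended on single libraries: they were lost without white Fgf8b 6 in white (log2 change −0.60, adjusted p = 0.0543), and in brown without control 9, Fgf8b 14 or Fgf8b 16 (−0.43 to −0.62, adjusted p 0.0634 to 0.126). Its log2 change was −0.79 in white and −0.67 in brown, and −1.58 and −1.64 with a pseudocount of 0.1.

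Of the 6 membrane-type Mmp genes, 4 were called lower in white and 5 in brown preadipocytes, and 0 higher, where 29.5% and 34.7% of all genes were called lower. Mmp17, a glycosylphosphatidylinositol-anchored member, fell from 7.28 ± 0.56 to 1.49 ± 0.27 RPKM in white (log2 change −2.22 ± 0.12) and from 6.65 ± 0.55 to 1.5 ± 0.12 RPKM in brown preadipocytes (−2.10 ± 0.12). Mmp15, a relative of Mmp14, fell from 0.878 ± 0.12 to 0.206 ± 0.065 RPKM and from 1.74 ± 0.10 to 0.823 ± 0.088 RPKM. Its white log2 change was −1.52, and −0.97 with the representative RefSeq transcript alone. Mmp16, another relative of Mmp14, fell in brown cells from 3.38 ± 0.32 to 2.14 ± 0.12 RPKM (log2 change −0.65 ± 0.087, adjusted p = 2.05e-06). In white cells Mmp16 was at 1.48 ± 0.19 and 1.16 ± 0.12 RPKM, with overlapping libraries. That white call (−0.22 ± 0.087, adjusted p = 0.0300) was lost without white control 5, white control 7, white Fgf8b 6 or white Fgf8b 8, when the value lay between −0.16 and −0.22. Mmp24 was at 4.58 to 5.84 RPKM in the group means and passed in neither depot, with log2 changes of 0.08 ± 0.090 in white and 0.02 ± 0.090 in brown.

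Mmp11, stromelysin-3, is a secreted protease that is activated inside the cell by furin and is made by fibroblasts around tumours. It fell from 74.9 ± 2.3 to 24.8 ± 1.7 RPKM in white (log2 change −1.57 ± 0.061, adjusted p = 4.29e-14) and from 36.6 ± 2.1 to 11.8 ± 0.89 RPKM in brown preadipocytes (−1.63 ± 0.061, adjusted p = 1.88e-14). Mmp23 lacks the usual cysteine switch of the family. It was at 67.3, 67.3, 66.9 and 65.8 RPKM in white controls and 29.3, 24.2, 25.9 and 24.9 RPKM with Fgf8b. The brown libraries gave 64.9, 66.6, 66.9 and 51.0 RPKM in controls and 14.7, 13.3, 13.6 and 12.6 RPKM with Fgf8b. Controls of both depots were alike but for the low brown control 15, and the brown Fgf8b libraries lay below the white ones. The fall was larger in brown (−2.14 ± 0.078) than in white (−1.38 ± 0.078), a difference of −0.77 ± 0.11 (adjusted p = 3.09e-05).

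Mmp28, epilysin, fell from 2.26 ± 0.31 to 0.462 ± 0.091 RPKM in white and from 3.75 ± 0.45 to 0.461 ± 0.13 RPKM in brown preadipocytes, log2 changes of −2.12 ± 0.13 and −2.72 ± 0.13. Of its words of 31 bases 11.1% are shared with 1700020L24Rik, so part of its reads may be counted there. Mmp19, which cuts basement membrane proteins, was the gene outside the run that rose among the Mmp genes. Its level went from 31.2 ± 1.0 to 55.0 ± 1.6 RPKM in white (log2 change 0.82 ± 0.039) and from 28.6 ± 1.3 to 42.5 ± 0.85 RPKM in brown preadipocytes (0.58 ± 0.039). It shares 26.7% of its words, mainly with the neighbouring Tmem198b, which was at 23.1 and 37.6 RPKM in white controls and white Fgf8b libraries, so the split between them is uncertain.

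Summed over the 23 Mmp genes, the level was 905 ± 9.3 RPKM in white controls and 647 ± 23.8 RPKM with Fgf8b, and 682 ± 20.5 and 425 ± 11.8 RPKM in brown cells. Mmp3 made up 2.07% of the sum in white controls and 30.2% with Fgf8b, and 0.323% and 14.2% in brown cells. The share of Mmp14 was 47.0% and 29.7% in white and 59.3% and 48.7% in brown cells.

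**Figure D3:**
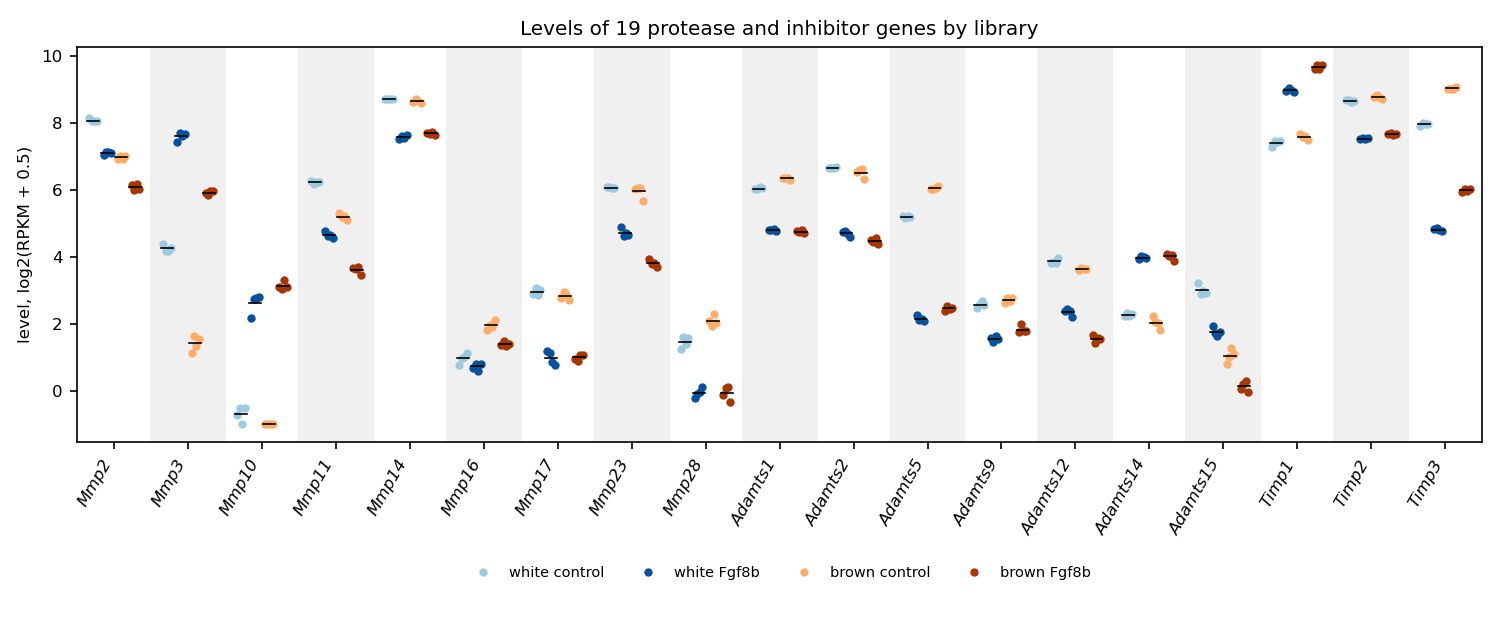
The 19 genes that averaged 1 RPKM or more and had a log2 change of at least 1 in any comparison, by group (vertical axis, level as log2(RPKM + 0.5)). Each point is a library and each line a group mean. Mmp3, Mmp10, Adamts14 and Timp1 are higher with Fgf8b in both depots and the other genes lower.

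Of the 7 Adamts proteases known to cut proteoglycans such as aggrecan and versican, 4 were called lower in each depot, 2 higher in white and 1 higher in brown preadipocytes. Over all genes tested, 36.3% were called higher and 29.5% lower in white, and 36.7% higher and 34.7% lower in brown. Adamts5, the main aggrecanase of mouse cartilage, was at 37.2, 35.1, 36.7 and 36.4 RPKM in white controls and 4.29, 3.81, 3.89 and 3.71 RPKM with Fgf8b. It was at 65.6, 65.5, 67.0 and 68.6 RPKM in brown controls and 4.77, 5.26, 4.97 and 5.07 RPKM with Fgf8b. Libraries of the 4 groups did not overlap, and the controls of the depots lay further apart than their Fgf8b libraries. The fall was 8.89-fold in white (log2 change −3.15 ± 0.047, adjusted p = 4.96e-20) and 13-fold in brown preadipocytes (−3.71 ± 0.047, adjusted p = 4.75e-21). The difference between the depots was −0.55 ± 0.067 (adjusted p = 4.07e-06).

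Adamts1, which cuts versican and aggrecan, lies next to Adamts5 on chromosome 16 and fell as well. Its level was 65.8 ± 1.3 and 27.6 ± 0.45 RPKM in white controls and white Fgf8b libraries, and 81.1 ± 2.0 and 26.7 ± 0.83 RPKM in brown ones (log2 changes −1.25 ± 0.041 and −1.59 ± 0.041). Adamts9, a versicanase that is the homologue of GON-1 of Caenorhabditis elegans, fell from 5.46 ± 0.36 to 2.44 ± 0.14 RPKM in white and from 6.08 ± 0.33 to 3.06 ± 0.28 RPKM in brown cells. Adamts15 and Adamts8, also proteoglycan-cleaving, are neighbours on chromosome 9 and moved in opposite directions. Adamts15 fell from 7.58 ± 0.90 to 2.91 ± 0.33 RPKM in white and from 1.57 ± 0.28 to 0.599 ± 0.11 RPKM in brown preadipocytes. Adamts8 rose from 9 to 270 reads in white (ratio 29.7, interval 15.4 to 65.7) and from 29 to 272 reads in brown preadipocytes (ratio 9.56, interval 6.51 to 14.6). Its fitted log2 changes were 2.12 ± 0.15 (adjusted p = 2.80e-10) and 1.98 ± 0.15 (6.09e-10), and with a pseudocount of 0.1 the white value was 3.70. They differed by −0.15 ± 0.21 (adjusted p = 0.635). Adamts4, an inducible aggrecanase, rose in white cells from 7.08 ± 0.43 to 9.93 ± 0.49 RPKM (log2 change 0.47 ± 0.057, adjusted p = 7.96e-07). In brown cells Adamts4 was at 8.63 ± 0.46 and 7.82 ± 0.46 RPKM (−0.13 ± 0.057, adjusted p = 0.0534), and the difference of the responses was −0.59 ± 0.081 (adjusted p = 1.61e-05).

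The 3 procollagen N-proteinases, which remove the amino-terminal propeptide of fibrillar procollagens, did not move together. Adamts2 was the highest Adamts gene in controls. White libraries gave 102, 102, 101 and 102 RPKM in controls and 26.6, 27.2, 25.4 and 23.9 RPKM with Fgf8b. Brown libraries gave 93.7, 97.0, 98.1 and 79.7 RPKM in controls and 22.3, 21.2, 23.5 and 20.3 RPKM with Fgf8b. Treated libraries lay below all controls, with log2 changes of −2.06 ± 0.052 (adjusted p = 9.57e-17) and −2.16 ± 0.052 (3.42e-17). Adamts3, a procollagen II and VEGF-C processing enzyme, fell from 0.223 to 0.0527 RPKM in white and from 0.429 to 0.0549 RPKM in brown cells. Its log2 changes of −0.78 and −1.62 were −1.36 and −2.65 with a pseudocount of 0.1.

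Adamts14, the remaining procollagen N-proteinase, rose. It was at 4.21, 4.52, 4.18 and 4.37 RPKM in white controls and 14.8, 15.7, 15.4 and 15.2 RPKM with Fgf8b. In brown cells it was at 4.25, 3.70, 3.54 and 3.05 RPKM in controls and 16.4, 16, 16.1 and 14.4 RPKM with Fgf8b. The treated libraries of the depots overlapped each other and lay above all controls. The rise was 3.47-fold in white (log2 change 1.80 ± 0.077, adjusted p = 2.05e-13) and 4.26-fold in brown preadipocytes (2.09 ± 0.077, adjusted p = 1.63e-14). Adamts2 made up 37.9% of the summed Adamts level in white controls and 21.4% with Fgf8b, and 31.3% and 20.3% in brown cells. The share of Adamts14 was 1.61% and 12.7% in white and 1.23% and 14.6% in brown cells.

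Of the other Adamts genes, 5 of 9 were tested, of which 2 were called higher and 3 lower in each depot. The shares over all genes were 36.3% higher and 29.5% lower in white, and 36.7% higher and 34.7% lower in brown. Adamts12, which cuts cartilage oligomeric matrix protein, fell from 14.1 ± 0.67 to 4.64 ± 0.35 RPKM in white (log2 change −1.54 ± 0.060) and from 12 ± 0.26 to 2.45 ± 0.20 RPKM in brown preadipocytes (−2.26 ± 0.060), a difference of −0.72 ± 0.085 (adjusted p = 2.86e-06). Adamts16 fell from 308 to 7 reads in white and from 161 to 4 in brown preadipocytes, ratios of 0.0225 (interval 0.00897 to 0.0469) and 0.0253 (0.00682 to 0.0661). Its log2 changes of −2.79 and −2.29 were −1.39 and −1 with the representative RefSeq transcript alone. Adamts10, which binds fibrillin, fell by 0.44 ± 0.11 in white and by 0.74 ± 0.11 in brown preadipocytes on the log2 scale. Adamts6, its close relative, rose from 5.48 ± 0.34 to 9.01 ± 0.085 RPKM in white and from 4.14 ± 0.62 to 7.53 ± 0.44 RPKM in brown cells. Adamts7, another protease of cartilage oligomeric matrix protein, rose from 5.09 ± 0.44 to 7.46 ± 0.42 RPKM and from 4.25 ± 0.59 to 8.03 ± 0.44 RPKM.

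The 3 expressed inhibitors moved in opposite directions. Timp1, a soluble secreted inhibitor, was at 156, 176, 172 and 179 RPKM in white controls and 505, 529, 515 and 488 RPKM with Fgf8b. The brown libraries gave 206, 193, 196 and 179 RPKM in controls and 783, 855, 781 and 858 RPKM with Fgf8b. The highest white control and the lowest brown control were both at 179 RPKM, the white Fgf8b libraries lay above them and the brown Fgf8b libraries were highest. The rise was 2.98-fold in white (log2 change 1.58 ± 0.049, adjusted p = 1.63e-15) and 4.22-fold in brown preadipocytes (2.08 ± 0.049, adjusted p = 2.05e-17), a difference of 0.50 ± 0.069 (adjusted p = 1.68e-05).

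Timp3 binds to the matrix and inhibits Adamts and Adam proteases as well as Mmp proteases. It was at 241, 255, 252 and 253 RPKM in white controls and 27.8, 29.0, 27.6 and 26.7 RPKM with Fgf8b. In brown libraries it was at 524, 517, 524 and 543 RPKM in controls and 61.0, 64.9, 62.8 and 65.0 RPKM with Fgf8b. Each Fgf8b group lay below each control group and brown cells above white cells within each treatment. The fall was 8.98-fold in white (log2 change −3.17 ± 0.032, adjusted p = 3.70e-22) and 8.25-fold in brown preadipocytes (−3.05 ± 0.032, adjusted p = 3.72e-22). Timp3 lies within an intron of Syn3 and shares 21.9% of its words, mainly with Syn3, whose own level was 0.121 to 0.191 RPKM in the group means.

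Timp2, which with Mmp14 takes part in activating the Mmp2 proenzyme, fell from 407 ± 5.3 to 186 ± 3.9 RPKM in white and from 442 ± 15.1 to 206 ± 2.9 RPKM in brown preadipocytes (SD, n = 4). The log2 change was −1.11 ± 0.025 in each depot (adjusted p = 2.33e-17 in white and 1.53e-17 in brown). Timp4 was at or below 0.0714 RPKM in every library and was not tested.

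The summed Timp level was 828 ± 14.6 RPKM in white controls and 723 ± 18.5 RPKM with Fgf8b, and 1163 ± 10.7 and 1088 ± 46.7 RPKM in brown cells (SD, n = 4). Timp1 made up 20.6% of the sum in white controls and 70.4% with Fgf8b, and 16.7% and 75.2% in brown cells. Timp3 made up 30.2% and 3.84% in white and 45.3% and 5.83% in brown cells. The ratio of summed Mmp to summed Timp RPKM was 1.09 ± 0.030 in white controls, 0.895 ± 0.033 in white Fgf8b, 0.586 ± 0.013 in brown control and 0.391 ± 0.027 in brown Fgf8b libraries. These are ratios of RNA levels and say nothing of the active enzymes. All sums and shares of the families given here take a single transcript per gene. Sums over all transcripts raise genes unequally. In brown control 9 Timp3 then stood at 2899 in place of 524 RPKM, and Mmp14 at 1446 in place of 401 RPKM. The ratio and its changes therefore depend on that choice and were not computed on such sums.

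**Figure D4:**
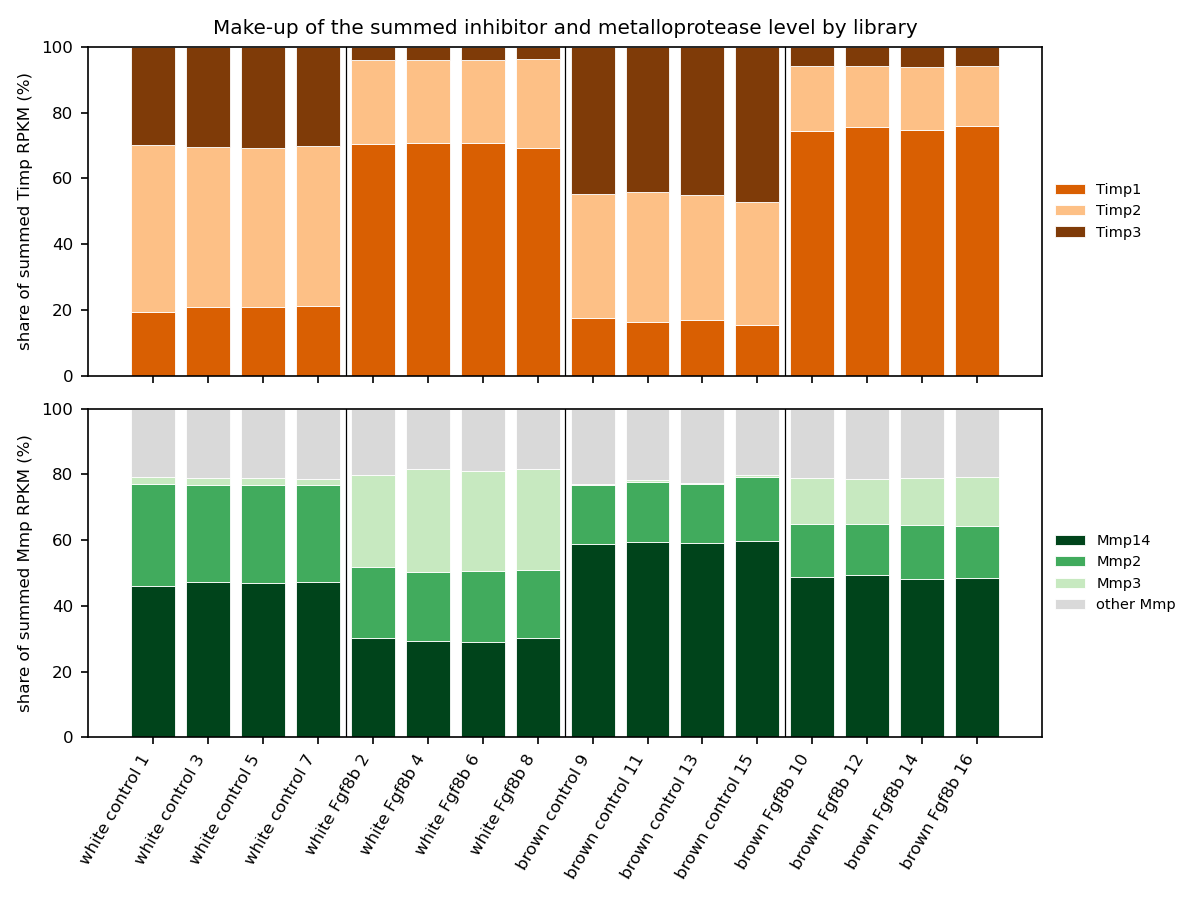
Make-up of the summed Timp level (upper panel, percent of summed Timp RPKM) and of the summed Mmp level (lower panel, percent of summed Mmp RPKM) in each of the 16 libraries. With Fgf8b the share of Timp1 is 69.3 to 76.0% against 15.6 to 21.3% in controls, and Mmp3 takes 28.1 to 31.3% of the Mmp sum in white and 13.8 to 15% in brown Fgf8b libraries.

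Set against each other, brown and white cells differed in part of these genes. Of the 37 tested genes 11 were higher and 12 lower in brown than in white controls, against 33.9% of all genes called (18.1% higher and 15.9% lower). With Fgf8b 12 were higher and 12 lower, against 51.6% of all genes (26.9% higher and 24.7% lower). At least 2-fold calls numbered 6 in controls (3.36% of all genes), 2 of them higher (2.05%) and 4 lower (1.31%). With Fgf8b they numbered 7 (4.31% of all genes), 2 higher (1.79%) and 5 lower (2.52%). All white libraries have lower numbers in their labels than all brown ones, so any effect of the order of handling and the depot cannot be told apart. These 2 comparisons and the difference of the responses share libraries with the Fgf8b comparisons. Of 299 repeated accessions, 145 have unequal values in white and 0 in brown libraries, and whether both depots were processed in the same way is not stated. Levels set across depots rest on the authors' scaling being alike.

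Between the controls Mmp3 differed most, with a log2 difference of −2.96 ± 0.094 in brown against white (adjusted p = 3.23e-14). Adamts15 (−1.99 ± 0.13), Mmp2 (−1.09 ± 0.041) and Mmp11 (−1.04 ± 0.061) were also lower in brown cells. Mmp16 (1.14 ± 0.087), Timp3 (1.08 ± 0.032) and Adamts5 (0.89 ± 0.047) were higher. With Fgf8b the differences of Mmp2 (−1.02), Mmp11 (−1.10), Adamts15 (−1.65) and Timp3 (1.20) were of the same sign. Mmp10 was called lower in brown controls (−0.55, adjusted p = 0.0211) and higher in brown Fgf8b libraries (0.55, adjusted p = 0.0148). The control call was lost without white control 3 or white control 7 (−0.45 and −0.47), and the Fgf8b call without white Fgf8b 2 (0.39, adjusted p = 0.0685). With a pseudocount of 1 the control value was −0.31 (adjusted p = 0.0842), and with 0.1 the Fgf8b value was 0.56 (adjusted p = 0.207). Adamts2 was called lower in brown controls (−0.15, adjusted p = 0.0282), a call lost without white control 1, white control 5 or brown control 15 (−0.10 to −0.15).

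The Fgf8b responses themselves differed between the depots for 18 of the 37 tested genes, 8 with the higher value in brown and 10 with the lower, against 34.9% of all genes (17.1% higher and 17.8% lower). Of these 5 differed by at least 2-fold (3.97% of all genes), 4 higher (1.46%) and 1 lower (2.51%). Leaving out white Fgf8b 2 lowered the 8 to 5. The response was higher in brown for Mmp3, Mmp10, Mmp13 (1.06 ± 0.29, adjusted p = 0.00837), Mmp14, Mmp27 (1.04 ± 0.34, adjusted p = 0.0224), Adamts14, Timp1 and Timp3. It was lower in brown for Mmp12, Mmp16, Mmp19, Mmp23, Mmp28, Adamts1, Adamts3, Adamts4, Adamts5 and Adamts12. The Mmp27 call was lost without white Fgf8b 2 or brown Fgf8b 16 (0.86 and 0.91). Adamts14 (0.29 ± 0.11, adjusted p = 0.0436) and Timp3 (0.12 ± 0.045, adjusted p = 0.0452) lay close to the threshold. The Adamts14 call held only without brown control 9, brown control 11 or brown Fgf8b 16 and was lost in the other 13 single-library omissions (0.21 to 0.31, adjusted p up to 0.0825). The Timp3 call held only without white control 1, white Fgf8b 4, brown control 15 or brown Fgf8b 10 and was lost in the other 12 (0.10 to 0.13, adjusted p up to 0.0984). With upper-quartile factors the values were 0.26 for Adamts14 (adjusted p = 0.0619) and 0.09 for Timp3 (adjusted p = 0.152). The Adamts3 call was lost with a pseudocount of 0.1 (−1.28, adjusted p = 0.0615).

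**Figure D5:**
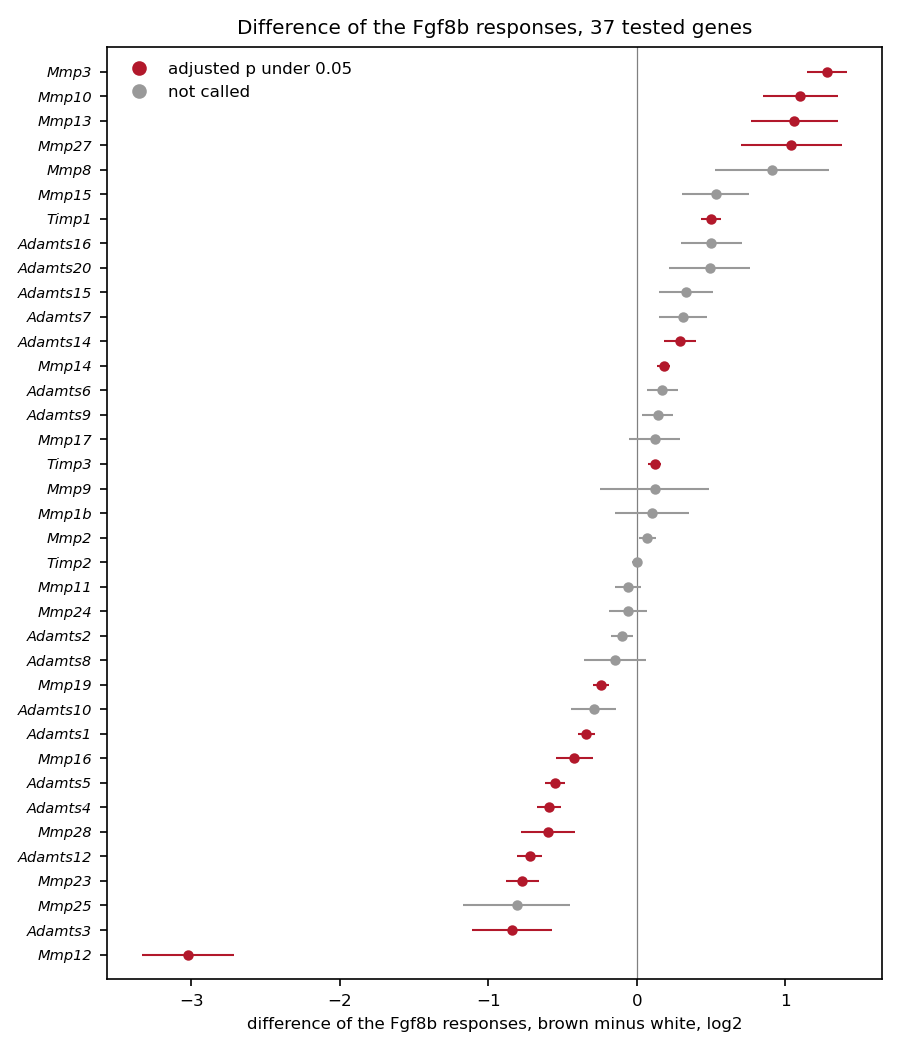
Difference of the Fgf8b responses between depots, brown minus white (horizontal axis, log2), for the 37 tested genes. Points are limma estimates, bars their SE, and red points the 18 genes with an adjusted p under 0.05. Mmp12 lies far to the left at −3.02, and Mmp3 is the highest at 1.28.

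Genes around these families were described from lists of activators and clearance receptors, related metalloproteases, Adamts-like genes and substrates. Their counts stand against 36.3% of all genes called higher and 29.5% lower in white, and 36.7% higher and 34.7% lower in brown preadipocytes. Of 20 tested genes that activate or clear Mmp proteases or their proenzymes, 12 were called higher and 7 lower in white, and 11 higher and 7 lower in brown preadipocytes. Plaur, the urokinase receptor, rose from 6.00 ± 0.47 to 19 ± 1.5 RPKM in white and from 7.61 ± 1.2 to 34.1 ± 0.24 RPKM in brown cells, and Pcsk6, a proprotein convertase, fell from 3.31 ± 0.23 to 0.149 ± 0.054 RPKM and from 6.01 ± 0.39 to 0.482 ± 0.042 RPKM. Their median log2 change was 0.31 in white and 0.13 in brown cells, against 0.04 and 0.01 over all genes. Of 19 tested genes listed as related metalloproteases, 5 were higher and 10 lower in white (median −0.43). In brown cells 4 were higher and 12 lower (median −0.41). The list also holds Pcolce and Pcolce2, which are enhancers of a procollagen protease and not proteases. Both were called lower in each depot. Pappa, a protease of insulin-like growth factor binding proteins, fell from 5.75 ± 0.18 to 0.331 ± 0.029 RPKM in white and from 4.27 ± 0.20 to 0.176 ± 0.026 RPKM in brown cells. Adam12, a membrane-anchored disintegrin protease, fell from 21.2 ± 0.42 to 5.53 ± 0.18 RPKM and from 22.1 ± 0.92 to 6.45 ± 0.23 RPKM.

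The Adamts-like genes encode secreted proteins without a protease domain, and of 5 tested 1 was higher and 4 lower in each depot. Adamtsl4, which binds fibrillin, fell from 8.08 ± 0.33 to 1.02 ± 0.15 RPKM in white and from 11.1 ± 1.4 to 1.84 ± 0.14 RPKM in brown cells. Adamtsl1 fell from 4.67 ± 0.31 to 0.674 ± 0.11 RPKM and from 1.93 ± 0.11 to 0.475 ± 0.086 RPKM. Of 22 tested substrates of these proteases 5 were called higher and 17 lower in white (median −1.06), and 4 higher and 17 lower in brown cells (median −1.07). Eln, elastin, fell from 11.7 ± 0.33 to 0.602 ± 0.074 RPKM in white and from 20.1 ± 0.74 to 0.189 ± 0.071 RPKM in brown cells, and Fbn2, a microfibril protein, fell from 21.6 ± 0.90 to 2.64 ± 0.17 RPKM and from 10.5 ± 0.40 to 1.74 ± 0.069 RPKM.

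Depth recovered from the steps between low values was 13.7 to 20.1 M reads (M for mega) per library. Of 10 preadipocyte markers 9 averaged 0.5 RPKM or more, with Pdgfra at 64.3 to 99.6 RPKM over the libraries. Their levels were not steady: mean Ly6a was 941 and 392 RPKM in white control and Fgf8b libraries and 573 and 144 RPKM in brown ones. Mean Pdgfrb was 129 and 46.2 RPKM in white and 141 and 70.3 RPKM in brown libraries, and mean Thy1 was 269 and 746 RPKM and 294 and 555 RPKM. The list summed to 1583 to 1693 RPKM in white controls and 1330 to 1500.3 RPKM with Fgf8b, and to 1155 to 1255 and 971 to 989 RPKM in brown libraries. Neutrophil markers had 0 of 8 at that mean, and S100a8, S100a9 and Ngp were at 0. Endothelial markers had 2 of 9, and their summed level was 11.1 to 12.2 RPKM in white controls and 2.58 to 3.08 RPKM with Fgf8b, and 7.79 to 9.08 and 1.58 to 2.04 RPKM in brown libraries. Most of that sum was Tek, with means of 9.29 and 0.608 RPKM in white and 6.58 and 0.380 RPKM in brown libraries, while Cdh5 had 1.13 and 1.92 RPKM and 0.571 and 0.844 RPKM. Pecam1 was at most 0.224 RPKM in any library. Schwann cell markers had 5 of 7, with sums of 12.9 to 15 and 2.71 to 3.63 RPKM in white and 16.4 to 19 and 4.29 to 5.42 RPKM in brown libraries. Skeletal muscle markers had 1 of 8, Acta1, with Myod1 at 0. Their sum was 5.06 to 7.50 RPKM in white controls and 2.08 to 2.85 RPKM with Fgf8b, and 8.54 to 10.6 and 2.28 to 2.70 RPKM in brown libraries. Epithelial markers had 1 of 8, Krt19, with Krt14 at 0, and their sum was 10.1 to 15.2 RPKM over all libraries. The part of such cells in the changes was not tested. Brown control 15 stood apart over all genes, with a median absolute log2 deviation from the rest of its group of 0.161 against 0.0650 to 0.0950 in the other 15 libraries. Over the genes described here it was at 0.105, within the 0.0438 to 0.142 of the others.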

How the data were processed

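The authors deposited one table of RPKM per transcript (168326 entries, 16 libraries, decimal commas). The unit is inferred from the values, and the sources used here give no genome build, aligner or strandedness. Antisense and overlapping genes therefore cannot be told apart. Per the labels' protocols the kit was Illumina's TruSeq version 2 on total RNA, and CASAVA and bcl2fastq are named per the submitters' processing notes. Entries without a gene symbol (13.8%) and 808 entries of 299 repeated accessions (2 of the 260 entries of the genes described) were left out, and the others were summed by symbol. The 15222 genes that reached 0.5 RPKM in 4 or more libraries were tested as log2(RPKM + 0.5) with limma 3.58.1 (trend, robust) in R 4.3.3, in 1 fit of all 16 libraries with no covariate, adjusted by Benjamini-Hochberg. The fit was tested on simulated data. Levels are those of the RefSeq transcript with the highest mean. Read counts were recovered from the steps of the values: at 50 reads or fewer, 95.66 to 96.03% of values came within 0.1 of a whole number. They are given only for transcripts whose fitted length was within 2% of GENCODE M21, and intervals and floors cover counting error only. No count test was run. Genes with full values had a mean of at least 1 RPKM and a log2 change of at least 1 in any comparison, and others named were chosen after their values were seen. In each list of other genes, the 2 with the largest Fgf8b response among those with a mean of at least 1 RPKM were named. The alternatives tried are given with the closing results. Members and lists were chosen with earlier results of these data known. Shared sequence was measured as shared words of 31 bases in GENCODE M21. Figures were drawn with matplotlib 3.10.9.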

Additional observations from a re-analysis of the deposited data

Results flagged for a closer look

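The difference of the Fgf8b responses between the depots passed the test (limma interaction term) for 18 genes, given as brown minus white on the log2 scale. The values above 0 were 1.28 for Mmp3, 1.10 for Mmp10, 1.06 for Mmp13, 1.04 for Mmp27, 0.50 for Timp1, 0.29 for Adamts14, 0.18 for Mmp14 and 0.12 for Timp3. Those below 0 were −3.02 for Mmp12, −0.84 for Adamts3, −0.77 for Mmp23, −0.72 for Adamts12, −0.60 for Mmp28, −0.59 for Adamts4, −0.55 for Adamts5, −0.42 for Mmp16, −0.34 for Adamts1 and −0.24 for Mmp19. For Mmp10 the value depends on the pseudocount, since the brown controls had 0 reads.

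In 3 of 75 groups of 4 libraries, a single library lay far from the other 3 in the level of a gene, where chance flags about 1 in 20 groups. Mmp10 was at 3.98 RPKM in white Fgf8b 2, below 6.18 to 6.43 RPKM in the rest of the group. Mmp23 was at 51.0 RPKM in brown control 15, below 64.9 to 66.9 RPKM. Adamts9 was at 3.47 RPKM in brown Fgf8b 12, above 2.88 to 2.95 RPKM.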

How the results depend on the processing

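Counts of called genes were recomputed with pseudocounts of 0.1 and 1, without or with a stricter filter (1 RPKM), with factors by median of ratios and by upper quartile, with the representative RefSeq transcript alone, with repeated accessions kept, without robust moderation, with only the groups compared, and without each library. Of 258 such counts 257 stayed within 1.5 times the reported count. The exception was the number of genes with the higher response in brown, 8, which was 5 without white Fgf8b 2 (range 5 to 8 over single-library omissions). For single genes 18 values changed sign and 0 of them passed the test. For brown against white with Fgf8b, Mmp17 was −0.0072 and Mmp28 −0.00098 with upper-quartile factors, Mmp28 was −0.0071 with the RefSeq transcript alone, and over single-library omissions Mmp17 ranged from −0.071 to 0.12 and Mmp28 from −0.097 to 0.14. For the difference of responses, Timp2 was 0.014 with median-of-ratios factors and 0.027 with the RefSeq transcript alone, and omissions gave −0.014 to 0.012 for Timp2 and −0.090 to 0.0028 for Mmp11. In 69 further cases a gene kept its direction and lost its call, and in 3 it gained one. Over all genes the split of higher to lower calls in white was 5521 to 4486, 4861 to 4975 with median-of-ratios and 4670 to 5167 with upper-quartile factors; in brown it was 5582 to 5282, 5253 to 5585 and 4599 to 6176. For the 75 levels compared, sums over all transcripts were 1.04 to 9.33 times the representative level. Of these 75, 72 moved by more than the spread between libraries. Other genes lay beyond that range. Mmp12 in the white Fgf8b libraries had 10.2 to 16.2 RPKM summed against 0.589 to 0.930 RPKM for the representative transcript. No paired analysis was possible because no replicate number is shared between groups. With 4 libraries per group and few reads, changes of genes under about 0.5 RPKM are uncertain.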
